A study of Mus musculus with 8 samples.

Results

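The transcripts of 9 genes of programmed cell death were followed here in mouse liver, out of 21049 genes measured. They were taken by name: the death receptor Fas and its caspase Casp8, the BCL2 family members Bid, Bcl2l11 (BIM), Bcl2l1 (BCL-XL) and Mcl1, and Ripk3, Mlkl and Gsdmd, which act in lytic forms of death. All 9 are listed, 8 have a mean of at least 1 FPKM (sequenced fragments relative to the length of the gene and the size of the library) over the samples, and Ripk3 lies below that minimum. RNA was sequenced from 4 control samples given saline and 4 samples given alcohol, all labelled wild type, and the design text names C57BL/6 mice and alcohol feeding. Dose, duration, sex and age are not stated there. The labels name liver as the tissue and also AML12, a hepatocyte line, as the cell line. Transcripts that a hepatocyte line would not supply were present, with 10 Kupffer cell and macrophage markers summing to 42.5 to 134 FPKM in the controls, so the libraries are read here as liver tissue. Whether the samples are from separate animals is not stated, and p-values therefore measure only the spread between these samples.

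Read support was high for most of the 9 genes. The library totals recovered from the values were 33872595 to 34789814 reads in controls and 37132631 to 38407511 reads with alcohol. Alcohol replicates 2 and 4 resembled each other more than other samples of 1 group did, with a chi-square per gene of 7.63 between their recovered reads against 38.7 for the next pair, although duplicates are denied in the design text, and calls of the members are also given with this pair averaged as 1. In tissue, fewer cells of a type and less RNA per cell cannot be told apart. Over the 9228 genes tested, log2 changes had a median of 0.24, and 57.2% were called, 44.2% higher and 13.0% lower with alcohol. FPKM values are relative to a library's total, and each change is best read beside that shift. Below, means stand ± SD over the 4 samples of a group (n = 4), and log2 changes (alcohol minus control) ± SE.

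In the extrinsic route of apoptosis a ligand joins death receptors such as FAS, and the adaptor FADD brings caspase-8 to them. Caspase-8 cleaves executioner caspases directly and also cleaves BID, which carries the signal to mitochondria. Hepatocytes are the textbook case of cells that need this mitochondrial step. There, BH3-only proteins such as BID and BIM oppose the guardians BCL-XL and MCL1, and the pore-forming BAX and BAK are released when the guardians are outnumbered. Both guardians are known to be needed by hepatocytes. In necroptosis the kinase RIPK3 phosphorylates MLKL, which ruptures the plasma membrane, and caspase-8 holds this route in check. In pyroptosis inflammatory caspases cleave gasdermin D (GSDMD), whose fragment forms pores. Many of these steps are set by protein cleavage or phosphorylation, which RNA does not measure.

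Of the 9 genes, Bcl2l11, Mcl1 and Bid rose with alcohol, Casp8 fell, and Fas, Bcl2l1, Ripk3, Mlkl and Gsdmd did not pass the test. The calls are from limma on log2(FPKM + 1) with Benjamini-Hochberg adjustment over all tested genes at 0.05. All 3 rises lay in the BCL2 family and the fall in the death receptor branch, while 0 of 3 genes of lytic death passed (Ripk3 read from the fit over all listed genes, where 30.6% were called, 24.2% higher and 6.39% lower). A share of 3 rises in 9 is no larger than the 44.2% called higher over all tested genes. The calls for Casp8, Bcl2l11 and Mcl1 held in all 18 alternatives tried, and that for Bid was lost in 2 of them.

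**Figure D1:**
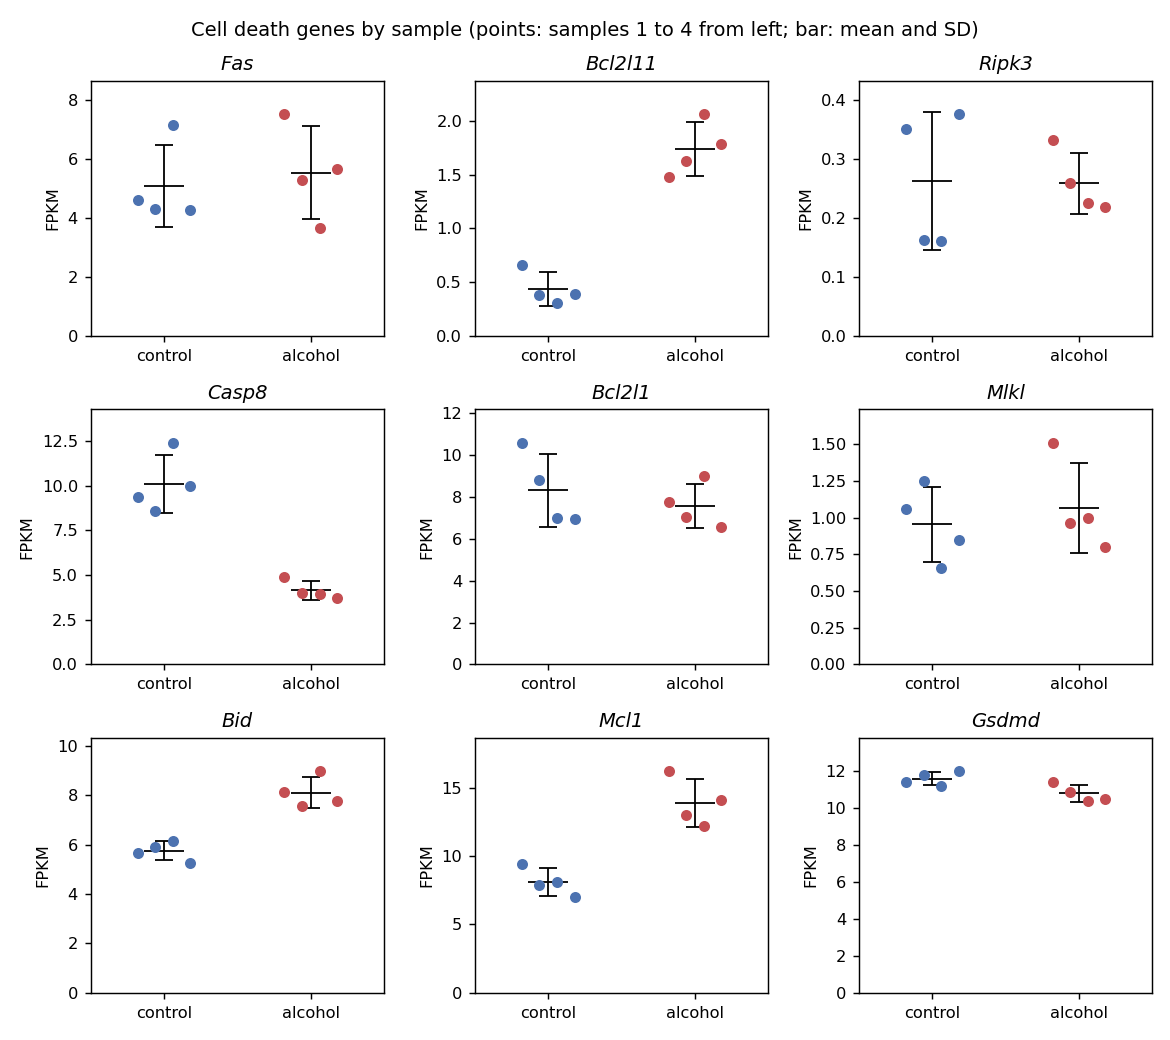
FPKM of the 9 genes in each sample, with 1 panel per gene, points for the 4 control (blue) and 4 alcohol (red) samples in replicate order, and bars for the mean and SD. Casp8 lies lower in all 4 alcohol samples, Bid, Bcl2l11 and Mcl1 lie higher, and the groups overlap in the other panels.

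Casp8, the initiator caspase of death receptors, fell to 0.410 of its control mean. It stood at 9.38, 8.60, 12.4 and 10 FPKM in control replicates 1 to 4 and at 4.90, 4.01, 3.96 and 3.70 FPKM in the alcohol replicates. The highest alcohol sample lay well below the lowest control, so the groups did not overlap, which held for 50.2% of tested genes in either direction and for 10.7% downward. The means were 10.1 ± 1.63 FPKM in controls and 4.14 ± 0.524 FPKM with alcohol. The log2 change was -1.10 ± 0.12 and the limma adjusted p was 4.7e-05, place 162 from the lowest among the 9228 tested genes. An exact 2-sided permutation test of the means gave p = 0.0286, the smallest that 4 against 4 samples can give. Between 416 and 1301 reads stood behind each value, and the change ran from -1.40 to -1.05 over the alternatives other than leaving out a sample. With alcohol replicates 2 and 4 averaged as 1 it was -1.08 (limma adjusted p = 0.000236), and Bid, Bcl2l11 and Mcl1 were also still called. In GENCODE M21 on GRCm38 Casp8 is a protein-coding gene on the plus strand at chr1:58795374-58847503.

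Fas, the receptor for FAS ligand, showed no difference beyond the spread between samples. Its values were 4.60, 4.31, 7.15 and 4.28 FPKM in controls, and alcohol samples had 7.51, 5.29, 3.67 and 5.66 FPKM. Control replicate 3 stood apart from the other controls, alcohol replicate 3 was the lowest of all 8, and the groups overlapped. The means were 5.09 ± 1.39 and 5.53 ± 1.58 FPKM, with a log2 change of 0.09 ± 0.19 and a limma adjusted p of 0.691. Without control replicate 3 the log2 change was 0.24 (limma adjusted p = 0.278) and without alcohol replicate 3 it was also 0.24 (limma adjusted p = 0.262). Fas lies on the plus strand at chr19:34290666-34327772. In every control Casp8 stood above Fas, with ratios of 2.04, 1.99, 1.73 and 2.35 within a sample, while with alcohol the ratios were 0.653, 0.759, 1.08 and 0.654.

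Among the BH3-only genes, Bcl2l11 had the largest rise of the 9 genes. BIM, its product, binds all the guardians and can activate the pore-forming proteins. Bcl2l11 stood at 0.660, 0.384, 0.308 and 0.394 FPKM in controls, and the alcohol samples at 1.48, 1.63, 2.06 and 1.78 FPKM. The alcohol values were all above all control values, as was true in that direction for 39.5% of tested genes. The mean was 3.98 times the control mean, at 1.74 ± 0.245 against 0.436 ± 0.154 FPKM. The log2 change was 0.93 ± 0.10 (limma adjusted p = 5.14e-05, exact permutation p = 0.0286), a scale that understates low genes. On recovered reads, limma-voom gave 2.04 (adjusted p = 2.31e-05), and a pseudocount of 0.1 FPKM gave 1.81. Each control library held 128 to 275 Bcl2l11 reads and each alcohol library 680 to 946. Only the alcohol values brought its mean over the minimum of 1 FPKM, so it was tested because they were high, and the fit over all listed genes, which has no minimum, also called it higher.

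Bid, the BH3-only protein that caspase-8 cleaves, rose by less, and its call rests on the scaling. Its values were 5.66, 5.92, 6.16 and 5.26 FPKM in controls, and alcohol samples had 8.12, 7.58, 8.97 and 7.76 FPKM, with no overlap. The means were 5.75 ± 0.384 and 8.11 ± 0.616 FPKM, a ratio of 1.41, and the log2 change was 0.43 ± 0.09 (limma adjusted p = 0.00257). With median-of-ratios scaling, which centres the samples on the median gene, the log2 change was 0.17 (limma adjusted p = 0.14), and with quantile normalization 0.14 (limma adjusted p = 0.23). Exons of Bid share 628 bases with Bcl2l13 on the other strand. Bcl2l13, a mitochondrial BCL2 relative that is not among the 9 genes, rose too, from 4.76 ± 0.693 to 8.87 ± 1.20 FPKM (limma adjusted p = 0.000402). Whether counting used strand is not given, so reads of the shared bases cannot be told apart.

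The 2 guardians differed in their values. Mcl1, a short-lived guardian whose protein is turned over quickly, stood at 9.42, 7.88, 8.11 and 7.01 FPKM in controls, and alcohol samples had 16.2, 13.0, 12.2 and 14.1 FPKM. Every alcohol sample was above every control, and the mean rose from 8.11 ± 0.996 to 13.9 ± 1.75 FPKM. Its log2 change was 0.71 ± 0.12 (limma adjusted p = 0.000538, exact permutation p = 0.0286), and median-of-ratios scaling gave 0.43 (limma adjusted p = 0.00556). Bcl2l1, the gene of BCL-XL, stood at 10.6, 8.81, 6.98 and 6.94 FPKM in controls, and alcohol samples had 7.78, 7.04, 8.99 and 6.57 FPKM. These values overlapped throughout, and the log2 change was -0.11 ± 0.14 (limma adjusted p = 0.534). With median-of-ratios scaling, under which 25.9% of tested genes were called higher and 26.5% lower, Bcl2l1 passed as lower (-0.37, limma adjusted p = 0.0275), and without control replicate 1, its highest sample, the log2 change was 0.0.

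Ratios between members within a sample do not move with the scaling of that library. Bcl2l11 relative to Bcl2l1 was 0.0625, 0.0436, 0.0441 and 0.0568 in controls and 0.191, 0.231, 0.229 and 0.271 with alcohol. The means were 0.0517 ± 0.00941 and 0.230 ± 0.0329, with no overlap. Relative to Mcl1, which rose as well, Bcl2l11 went from 0.0532 ± 0.0135 to 0.128 ± 0.0316. Bid relative to Bcl2l1 was 0.536, 0.672, 0.882 and 0.758 in controls and 1.04, 1.08, 0.997 and 1.18 with alcohol. Mcl1 relative to Bcl2l1 was 0.990 ± 0.127 in controls and 1.86 ± 0.359 with alcohol, a ratio chosen after the values were seen. Casp8 relative to Ripk3, which had few reads, was 26.7, 52.7, 76.8 and 26.7 in controls and lower, at 14.7, 15.4, 17.6 and 16.9, with alcohol, with no overlap. Thus the transcripts of BIM, BID and MCL1 all stood higher against that of BCL-XL in each alcohol sample than in any control. Bcl2l1 itself had a log2 change of -0.11, against a median of 0.24 over all tested genes. Without any ratio, 39.5% of tested genes lay higher in every alcohol sample than in any control. How many other genes separate the groups when set against Bcl2l1 was not counted. The ratios given here were not tested, since both genes of each were chosen with results known.

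**Figure D2:**
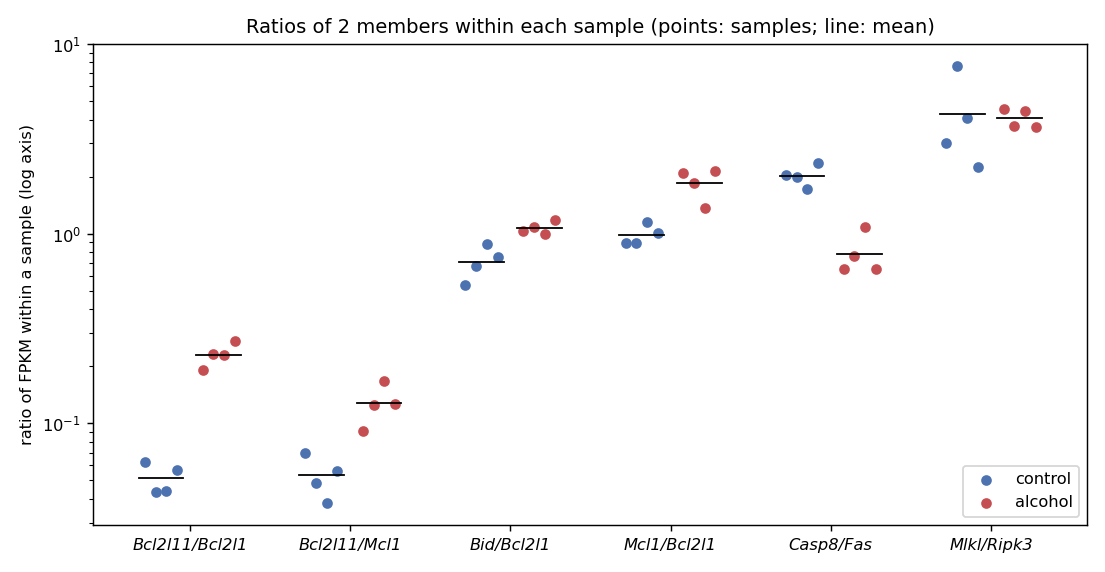
Ratio of the FPKM of 2 genes within each sample on a log axis, with points for samples (blue control, red alcohol) and a line for the mean of each group. The groups are apart for the first 5 pairs, with Casp8/Fas the one of these that is lower with alcohol, and overlap for Mlkl/Ripk3.

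The promoters of the 4 genes that passed are shown, from the RefSeq table on GRCm38.p6, because these are the members whose levels changed. The values are per gene, so which start was in use was not measured. Each run is the 250 bases before the start, 5′ to 3′ on the gene's strand, in lower case with any match to a searched motif in capitals. Bcl2l11 has 2 RefSeq starts, and the upstream one is shown. The windows are chr1:58802252-58802501 (plus strand) for Casp8, chr2:128125788-128126037 (plus) for Bcl2l11, chr3:95658471-95658720 (plus) for Mcl1 and chr6:120916825-120917074 (minus) for Bid.
Casp8: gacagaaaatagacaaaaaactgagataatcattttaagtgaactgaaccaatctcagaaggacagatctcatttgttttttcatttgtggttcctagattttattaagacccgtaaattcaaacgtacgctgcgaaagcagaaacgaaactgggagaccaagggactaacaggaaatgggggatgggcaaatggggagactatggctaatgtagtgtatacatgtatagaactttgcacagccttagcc
Bcl2l11: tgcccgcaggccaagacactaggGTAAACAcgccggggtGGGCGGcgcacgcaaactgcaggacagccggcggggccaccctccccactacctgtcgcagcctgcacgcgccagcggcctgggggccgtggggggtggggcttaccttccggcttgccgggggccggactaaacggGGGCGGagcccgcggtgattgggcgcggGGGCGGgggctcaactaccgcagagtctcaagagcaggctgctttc
Mcl1: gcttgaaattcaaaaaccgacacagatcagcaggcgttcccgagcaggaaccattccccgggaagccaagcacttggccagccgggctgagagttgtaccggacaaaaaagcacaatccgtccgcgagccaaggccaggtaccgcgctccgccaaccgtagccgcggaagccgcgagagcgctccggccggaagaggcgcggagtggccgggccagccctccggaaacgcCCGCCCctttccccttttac
Bid: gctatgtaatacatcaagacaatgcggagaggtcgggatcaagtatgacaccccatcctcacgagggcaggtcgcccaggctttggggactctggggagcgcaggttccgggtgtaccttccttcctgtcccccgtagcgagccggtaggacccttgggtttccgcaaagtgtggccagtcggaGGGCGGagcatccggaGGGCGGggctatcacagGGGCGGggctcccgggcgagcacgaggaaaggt
Both strands were searched for 7 motifs. The first was the GC box, spelled GGGCGG, and the next was the FOXO element, spelled GTAAACA. The C/EBP-ATF response element was spelled TGATGNAA, and the cyclic AMP response element was spelled TGACGTCA. For STAT factors the letters were TTCNNNGAA, and for the heat shock factor they were GAANNTTC. The TATA box was searched as TATAAA. The windows shown hold matches only to the GC box and the FOXO element, and none of these matches overlap. The GC box occurs 3 times before Bcl2l11, 3 times before Bid and 1 time before Mcl1 (as its reverse complement), and 32.7% of the 32851 RefSeq promoter windows of that length hold it. Among members that did not pass, whose windows are not shown, Fas and Ripk3 each hold it 1 time. Fas also holds 1 match to the STAT element and 1 to the heat shock factor unit. The windows of Bcl2l1 and Mlkl hold none of the motifs. Bcl2l1 has 3 RefSeq starts. Its windows at chr2:152828490-152828739 and chr2:152830718-152830967 lie with all 250 bases in annotated exons of the gene. In the Bid window shown, 29 bases lie in annotated exons of Bid. The FOXO element occurs 1 time, 221 bases before the upstream Bcl2l11 start, and 3.17% of all windows hold it. The window of the other Bcl2l11 start has no FOXO element and holds the GC box 1 time on each strand. The Casp8 window holds none of the 7 and is 39.6% G and C, against 72% for Bcl2l11, 64.4% for Mcl1, 63.6% for Bid and a median of 52.4% over all windows. The RefSeq start of Casp8 used here lies inside the span that GENCODE gives to the gene. Such matches are letters in a window and say nothing on whether a factor bound. RefSeq promoters were matched for 8 of the 9 genes, all but Gsdmd.

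Ripk3 and Mlkl, the kinase and the pore of necroptosis, had few reads. Ripk3 had 24, 11, 11 and 25 reads in controls and 25, 19, 17 and 16 with alcohol, which is 0.351, 0.163, 0.161 and 0.376 against 0.332, 0.260, 0.225 and 0.219 FPKM. Over the groups this was 71 reads against 77, a ratio of 0.989 relative to the library totals, with an exact 95% interval of 0.707 to 1.39 that covers counting error only. In the fit over all listed genes its log2 change was 0.00 ± 0.07 (limma adjusted p = 0.998). A change within that interval was not detectable for Ripk3 at this depth. Mlkl stood at 1.06, 1.25, 0.659 and 0.846 FPKM in controls, and alcohol samples had 1.51, 0.964, 0.995 and 0.799 FPKM, from 67 to 169 reads per library. The groups overlapped, with a log2 change of 0.08 ± 0.13 (limma adjusted p = 0.616) and a read ratio of 1.12 (exact 95% interval 0.977 to 1.29). Mlkl lies on the minus strand at chr8:111311797-111338177 and Ripk3 on the minus strand at chr14:55784995-55788865.

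The Ripk3 values went with macrophage markers only in part. Control replicates 1 and 4 had the most Ripk3 and also the highest sums of the 10 Kupffer cell and macrophage markers, 134 and 120 FPKM. Control replicates 2 and 3, with 11 Ripk3 reads each, had unlike sums of 42.5 and 74.9 FPKM. In the alcohol samples, replicate 1 had the highest Ripk3 and the highest sum, 89.0 FPKM, against 52.0 to 58.8 FPKM in the other 3. Those 3 had Ripk3 at 0.219 to 0.260 FPKM, above the 0.161 FPKM of control replicate 3, whose marker sum was higher than theirs. Of the 7 macrophage markers tested, 0 were called higher and 1 lower (Cd68), beside 44.2% and 13.0% of all tested genes. The part of macrophages in the Ripk3 values was not tested.

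Endothelial markers moved with the groups, and those of stellate cells and fibroblasts were mixed. All 8 endothelial markers were called higher, beside 44.2% of all tested genes. Their sum was 14.5 to 21.9 FPKM in controls and 66.4 to 79.3 FPKM with alcohol, none of them at 0. Lyve1, Tek and Kdr had control means of 0.478, 0.529 and 0.882 FPKM and reached the minimum only through the alcohol group, and the fit over all listed genes also called 8 higher. Of 8 markers of stellate cells and fibroblasts, 6 were tested, of which 3 were called higher (Lrat, Reln and Dcn) and 1 lower (Col3a1). The fit over all listed genes called 5 higher and 0 lower. The sum of the 8 was 40.1 to 70.9 FPKM in controls and 99.9 to 145 FPKM with alcohol. Dcn alone went from 48.6 ± 12.6 to 101 ± 17.1 FPKM. Col3a1 went from 4.55 ± 1.08 to 2.38 ± 1.88 FPKM (limma adjusted p = 0.0346). The 9 listed T, NK and B cell markers all lay under a mean of 1 FPKM, with sums of 3.21 to 4.82 FPKM in controls and 0.885 to 3.08 FPKM with alcohol. The fit over all listed genes called 2 of them lower, Cd79a and Cd79b, and 0 higher, beside 6.39% and 24.2% of all listed genes. The rest did not pass and did not all fall, with Klrb1c at 0.126 ± 0.0624 and 0.146 ± 0.0550 FPKM. Neutrophil markers summed to 35.5 FPKM in alcohol replicate 1 and to 1.59 to 4.89 FPKM in the other 7 samples, with Ly6g and Mpo under 0.1 FPKM throughout. The part of these cell types in the changes of Bcl2l11, Mcl1, Bid and Casp8 was not tested. The endothelial, stellate, and T, NK and B cell sums each separate the groups as those 4 genes do. So do 50.2% of all tested genes, in either direction.

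**Figure D3:**
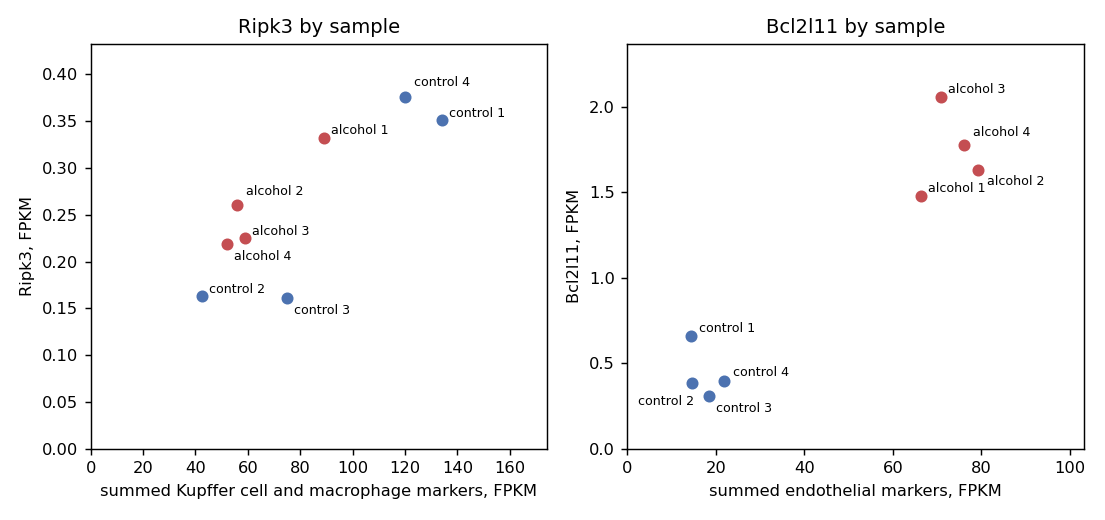
Left, Ripk3 (FPKM) against the summed Kupffer cell and macrophage markers (FPKM) in each sample. Right, Bcl2l11 (FPKM) against the summed endothelial markers (FPKM). Points are samples (blue control, red alcohol). Control replicates 1 and 4 are highest on both axes at left, and the groups are apart on both axes at right.

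Gsdmd, the gene of gasdermin D, had the narrowest spread of the 9 genes relative to its mean and did not pass the test. It stood at 11.4, 11.8, 11.2 and 12.0 FPKM in controls, and alcohol samples had 11.4, 10.9, 10.4 and 10.5 FPKM. Alcohol replicate 1 lay among the controls and the other 3 lay below them. The means were 11.6 ± 0.380 and 10.8 ± 0.444 FPKM, with a log2 change of -0.10 ± 0.08 (limma adjusted p = 0.348). With median-of-ratios scaling it passed as lower, at -0.37 (limma adjusted p = 0.00461), and on the TPM scale the change was 0.04. The call for Gsdmd thus depends on whether the samples are centred on the library total or on the median gene. It lies on the plus strand at chr15:75862327-75867408.

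**Figure D4:**
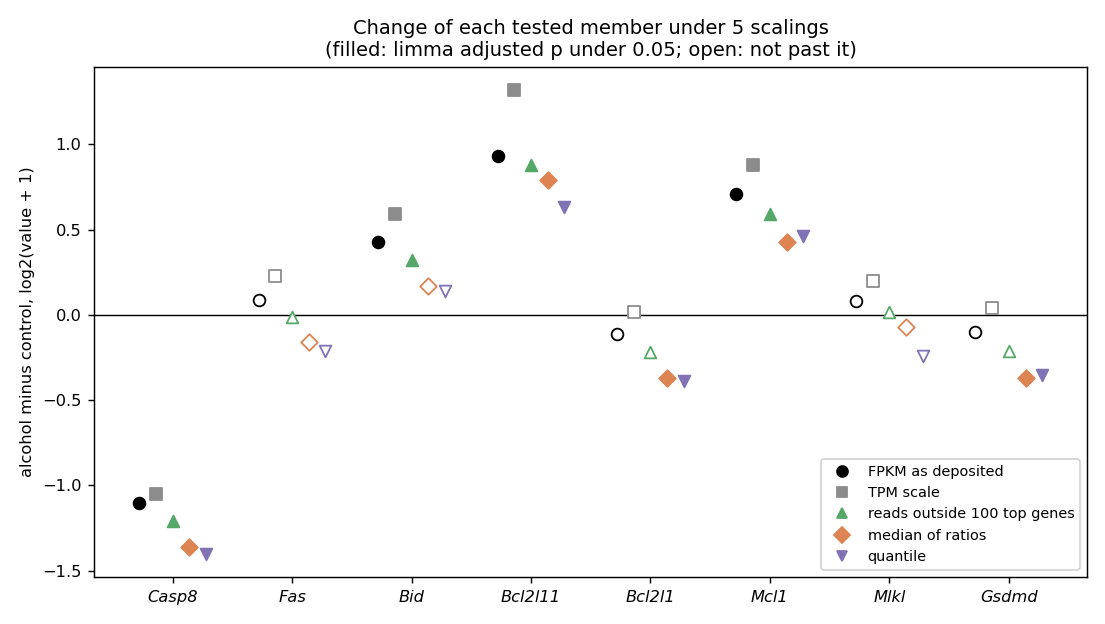
Alcohol minus control on the log2(value + 1) scale for the 8 tested genes under 5 scalings, with filled symbols where the limma adjusted p is under 0.05. Casp8, Bcl2l11 and Mcl1 keep their sign and call under all 5, Bid loses its call under 2, and Bcl2l1 and Gsdmd are called lower under the same 2.

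The order of levels changed between the groups. In controls Gsdmd was highest in 3 of 4 samples and Casp8 in the other. In control replicates 1 to 4 Casp8 stood at places 4, 3, 1 and 2, Bcl2l1 at 2, 2, 5 and 4, and Mcl1 at 3, 4, 3 and 3. Bid and Fas lay at places 4 to 6, and Mlkl, Bcl2l11 and Ripk3 at 7, 8 and 9 in every control. With alcohol Mcl1 was highest and Gsdmd next in all 4 samples, and Casp8 stood at place 6 in 3 samples and at place 5 in alcohol replicate 3. Bcl2l11 passed Mlkl in 3 of 4 alcohol samples, and Ripk3 was lowest in all 8 samples. Levels of different genes rest on the length used for each. The length recovered for Mcl1, 8725 bases, exceeds the 4389 bases that its GENCODE gene spans, whereas that for Casp8 was 3028 bases against 2893 annotated exon bases. With annotated exon lengths Mcl1 would have a control mean of 20.7 ± 2.54 FPKM and an alcohol mean of 35.5 ± 4.46 FPKM, the highest of the 9 in both. Comparisons of a gene between samples do not depend on its length.

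The rest of the cell death machinery was read from 7 lists of 79 listed genes, 50 of them tested. Of these 50, 14 were called higher and 8 lower with a median log2 change of 0.09, against 4080 and 1203 of 9228 genes and a median of 0.24 over all tested genes. Leaving out the 8 tested members, 11 of 42 were higher and 7 lower. With median-of-ratios scaling the 50 split into 7 higher and 18 lower, beside 25.9% and 26.5% of all tested genes. With quantile normalization they split into 9 and 18, beside 2221 and 2307 of 9228. The counts in each direction thus depend on the scaling. In each of these fits the lists had a smaller share called higher, and a larger share called lower, than all tested genes. That difference in shares was not tested.

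Around the death receptors, 4 of 14 tested genes were called higher and 2 lower, beside 44.2% and 13.0% of all tested genes. Tnfrsf21 (death receptor 6) rose from 0.797 ± 0.119 to 2.07 ± 0.288 FPKM and Tnfrsf1a, the main TNF receptor, from 24.7 ± 2.02 to 40.4 ± 14.1 FPKM. Tnfrsf21 reached the minimum only through its alcohol values, and without a minimum its limma adjusted p was 0.00108. Alcohol replicate 1 held Tnfrsf1a at 61.6 FPKM against 32.8 to 33.8 FPKM in the other 3, and median-of-ratios scaling ended the call (limma adjusted p = 0.135). The ubiquitin ligase Birc2 rose from 2.70 ± 0.470 to 3.98 ± 0.426 FPKM, but did not pass under median-of-ratios or quantile scaling (limma adjusted p = 0.119 and 0.395). Tradd, the adaptor of the TNF receptor, fell with Casp8, from 7.75 ± 0.391 to 4.38 ± 0.693 FPKM. Cflar and Tnfsf10 were picked with their values in view. Cflar, whose product FLIP restrains caspase-8, stood at 4.23 ± 1.47 and 3.93 ± 0.126 FPKM (limma adjusted p = 0.818), and passed as lower with quantile normalization (-0.37, limma adjusted p = 0.0457). Casp8 relative to Cflar was 1.47, 2.48, 3.95 and 2.55 in controls and 1.22, 0.993, 1.02 and 0.980 with alcohol. Tnfsf10, the ligand TRAIL, rose from 0.319 ± 0.0495 to 0.684 ± 0.188 FPKM in the fit over all listed genes (limma adjusted p = 0.0145), from 217 and 509 reads in the 2 groups.

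In the BCL2 family beyond the members, Bcl2l2, the guardian BCL-W, rose from 3.56 ± 0.575 to 6.60 ± 0.547 FPKM (limma adjusted p = 0.000328). Of 3 pore-forming genes Bak1 was called higher, from 5.20 ± 0.650 to 6.55 ± 0.497 FPKM (limma adjusted p = 0.0354). That call was lost in 9 of 18 alternatives, among them without alcohol replicate 1, 3 or 4 and without control replicate 2 or 4 (limma adjusted p of 0.0568, 0.0922, 0.0813, 0.0722 and 0.0987), and with median-of-ratios scaling (0.815) or alcohol replicates 2 and 4 averaged (0.052). Of 6 tested BH3-only genes the 2 members Bid and Bcl2l11 were called higher, and none of the other 4 was called. Beside the counts of pore-forming and BH3-only genes, 44.2% of all tested genes were called higher and 13.0% lower. Bmf, below the minimum and picked with its values in view, went from 1.22 ± 0.618 to 0.455 ± 0.171 FPKM, from 941 and 385 reads. Its control mean was above the minimum of 1 FPKM, so low alcohol values left Bmf out of the test. High alcohol values had brought Bcl2l11 into it, so the minimum tilts the BH3-only count upward. The groups overlapped for Bmf, and Bmf did not pass in the fit over all listed genes (limma adjusted p = 0.0613). With a minimum mean of 0.1 FPKM 1 BH3-only gene was called lower. The abundant Bnip3 stood at 201 ± 23.7 and 196 ± 7.84 FPKM, and Bnip3l at 18.6 ± 0.941 and 19.1 ± 1.40 FPKM (limma adjusted p = 0.844 and 0.757). With median-of-ratios scaling both passed as lower, Bnip3 at -0.33 and Bnip3l at -0.25 (limma adjusted p = 0.0482 and 0.0317). Hrk, a BH3-only gene known from neurons and chosen after its values were seen, had 1, 1, 0 and 0 reads in controls and 50, 56, 49 and 44 reads with alcohol. Relative to the library totals this is a ratio of 90.8 with an exact 95% interval of 24.8 to 755 (counting error only). Its level stayed low, at 0.246 ± 0.0254 FPKM with alcohol, and the fit over all listed genes called it higher (limma adjusted p = 4.14e-05).

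Downstream of mitochondria 2 of 11 tested genes were called higher and 4 lower, beside 44.2% and 13.0% of all tested genes. In the fit over all listed genes, which has no minimum, the list had 4 higher and 3 lower. Above the minimum the rises were of Xiap, which inhibits caspases, from 2.86 ± 0.468 to 5.11 ± 0.329 FPKM, and Dffa, which holds the caspase-activated nuclease, from 4.81 ± 0.616 to 8.07 ± 0.774 FPKM. The falls included Aifm1, a mitochondrial flavoprotein, from 39.8 ± 3.36 to 25.4 ± 2.21 FPKM, and Endog, a mitochondrial nuclease, from 40.8 ± 5.86 to 26.7 ± 2.18 FPKM. The limma adjusted p-values of these 4 genes were 0.000403, 0.000621, 0.00058 and 0.002. Below the minimum, and picked with their values in view, Apaf1, the scaffold of the apoptosome, rose from 0.161 ± 0.00897 to 0.390 ± 0.0792 FPKM (limma adjusted p = 0.0027 over all listed genes). Casp2, a caspase that promotes death, rose from 0.479 ± 0.109 to 0.959 ± 0.0752 FPKM (limma adjusted p = 0.0035 over all listed genes). The genes that rose thus included both inhibitors and promoters of death.

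In the necroptosis list 3 of 9 tested genes were called higher and 1 lower, none of them Mlkl, beside 44.2% and 13.0% of all tested genes. Zbp1, a sensor of Z-form nucleic acid that can engage RIPK3, fell from 3.29 ± 0.427 to 1.27 ± 0.326 FPKM (limma adjusted p = 0.000134). Pgam5, a mitochondrial phosphatase, rose from 8.95 ± 0.228 to 13.5 ± 1.21 FPKM. The phosphatase Ppm1b rose from 13.9 ± 1.47 to 18.7 ± 1.43 FPKM, but did not pass under median-of-ratios or quantile scaling (limma adjusted p = 0.302 and 0.141). The co-chaperone Cdc37 went from 35.5 ± 3.80 to 43.4 ± 3.55 FPKM (limma adjusted p = 0.0444). The Cdc37 call was lost in 12 of 18 alternatives, among them alcohol replicates 2 and 4 averaged as 1 (limma adjusted p = 0.11) and no minimum (0.0522). It was lost without alcohol replicate 2, 3 or 4 (limma adjusted p = 0.106, 0.0654 and 0.116) and without control replicate 2, 3 or 4 (0.126, 0.0626 and 0.0944), and its log2 change was -0.01 with median-of-ratios scaling. Ripk1, the kinase upstream of both apoptosis and necroptosis, was chosen after its values were seen and stood at 1.51 ± 0.361 and 1.96 ± 0.226 FPKM (limma adjusted p = 0.0894). It passed without control replicate 1 and on the TPM scale (limma adjusted p = 0.0164 and 0.0497).

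In the pyroptosis and inflammasome list 12 of 17 listed genes were below the minimum. Over all tested genes 44.2% were called higher and 13.0% lower, and of the 5 tested here 0 were called higher and 1 lower. That was Il18, the cytokine released through gasdermin pores, from 5.10 ± 0.536 to 3.73 ± 0.575 FPKM (limma adjusted p = 0.0175), a call lost without control replicate 2 and on the TPM scale (limma adjusted p = 0.0513 and 0.0761). Il1b, chosen after its values were seen, had 5, 9, 17 and 12 reads in controls and 173, 63, 5 and 87 with alcohol, and did not pass in the fit over all listed genes (limma adjusted p = 0.101). With a minimum mean of 0.1 FPKM it passed (limma adjusted p = 0.0374), though alcohol replicate 3 was the lowest of the 8 samples. That fit over all listed genes called 2 genes of the list lower, Il18 and Gbp3, an interferon-induced GTPase also picked with its values in view, from 1.31 ± 0.0927 to 0.594 ± 0.112 FPKM (limma adjusted p = 0.0016).

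**Figure D5:**
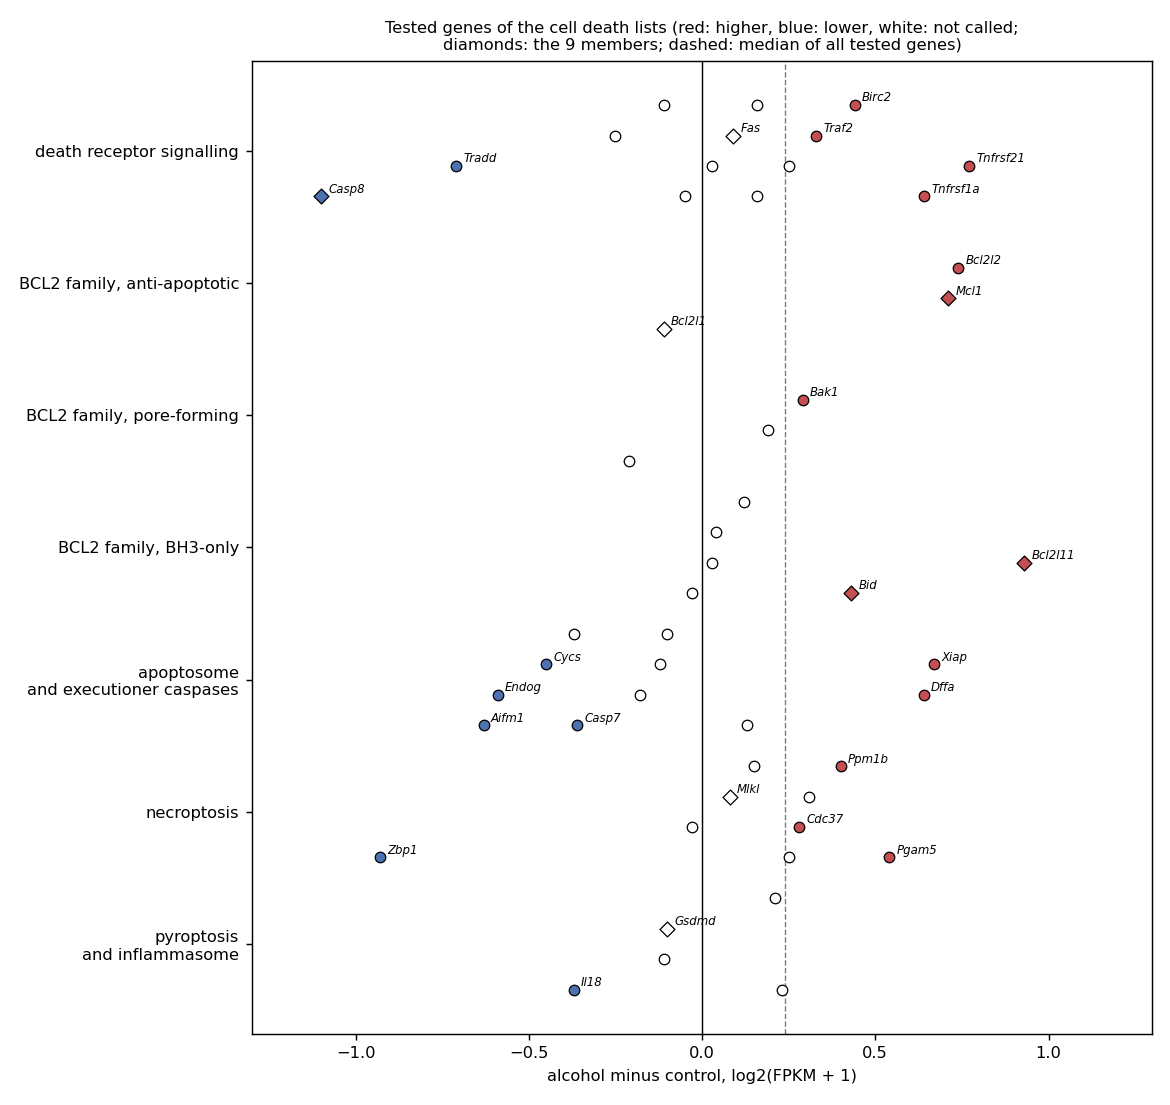
Alcohol minus control on the log2(FPKM + 1) scale for each tested gene of the 7 cell death lists, with red for genes called higher, blue for lower and white for the rest. Diamonds mark the 8 tested genes of the 9 described, and the dashed line is the median of all tested genes, 0.24. Casp8 is lowest and Bcl2l11 highest among the genes plotted.

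Genes with the most similar profile to a member over the 8 samples were ranked by Pearson's r of log2(FPKM + 1), as a description that mainly carries the group difference. For Casp8 these were Ppa1 (r = 0.989), Spc25 (0.987) and Cpn1 (0.981), which also had lower means with alcohol. For Bcl2l11 they were Bend7 (0.998), Inpp5a (0.995) and Rassf8 (0.994), and for Mcl1 Fermt2 (0.993), Kctd3 (0.991) and Swt1 (0.991). Ripk3, with its few reads, came nearest to Tmem39a (0.948) and Cd207 (0.906).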

How the data were processed

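The deposited values are FPKM, 1 column per sample for 21049 gene symbols, scaled by the authors to gene length and library total. Per the submitters' processing notes the builds are GRCm38 and mm10, and aligner, counter and annotation were not given in those sources. Per the labels' protocols, column-purified total RNA went into SMARTER mRNA libraries, and all samples share 1 batch label. Whole reads were recovered from FPKM for 21046 genes (99.99%) as the smallest gene length giving whole reads in all 8 samples to 1e-06 of a read. A true length that is a multiple of this one would multiply the reads and is not detectable from the values. Groups were compared with limma 3.58.1 (R 4.3.3) on log2(FPKM + 1), with a term for group and a variance trend, keeping genes whose mean over all samples reached 1 FPKM. Adjustment was by Benjamini-Hochberg at 0.05, and the fit was tested on simulated data. Ripk3 and the other named genes below the minimum (Hrk, Bmf, Tnfsf10, Il1b, Apaf1, Casp2, Gbp3) were read from a fit over all listed genes. Permutation tests ran over all 70 assignments. Read ratios have exact 95% binomial-based intervals that cover counting error only.

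The members and lists were chosen with earlier results of these data known. Beside the members, up to 4 genes per list were named by smallest p among those called, or the 2 most abundant where none was called, and for each member the 3 genes most correlated with it were ranked. Alternatives were another pseudocount, other minima, the TPM scale, scaling by median of ratios or by quantiles, limma-voom on recovered reads, a replicate block and leaving out each sample. Scaling to reads outside the 100 most abundant genes and averaging alcohol replicates 2 and 4 were added after seeing the data.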

Additional observations from a re-analysis of the deposited data

Results flagged for a closer look

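Fas in control replicate 3, at 7.15 FPKM, lay far above the other 3 controls, which stood at 4.28 to 4.60 FPKM. The gap to the nearest control was 0.888 of the range of the group, above Dixon's 95% critical value for 4 samples, which chance exceeds in about 1 of 20 groups. The ratio of Casp8 to Cflar in alcohol replicate 1, at 1.22, lay apart from 0.980 to 1.02 in the other 3 alcohol samples, with a gap of 0.834 of the range. These were 2 of 34 groups of 4 samples looked at, about what chance would give. Without control replicate 3 the log2 change of Fas was 0.24 (limma adjusted p = 0.278).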

How the results depend on the processing

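Casp8, Bcl2l11 and Mcl1 kept direction and call in all 18 alternatives, and without any 1 sample their log2 changes ran from -1.17 to -1.01, 0.88 to 1.00 and 0.64 to 0.78. With median-of-ratios scaling and quantile normalization, in this order, Bid no longer passed (0.17 and 0.14), Bcl2l1 (-0.37 and -0.39) and Gsdmd (-0.37 and -0.35) passed as lower, and Fas (-0.16 and -0.21) and Mlkl (-0.07 and -0.24) changed sign without passing. Members called lower rose from 1 to 3 under both. All genes called were then 2386 higher and 2446 lower, and 2221 and 2307, against 4080 and 1203, and genes of the cell death lists 7 and 18, and 9 and 18, against 14 and 8. Both settings centre the samples, which had a median log2 change of 0.244 as deposited. On the TPM scale, where that median was 0.397, the changes of Bcl2l1 (0.02), Gsdmd (0.04), Cflar (0.08) and Bnip3 (0.12) turned positive. Scaled to reads outside the 100 most abundant genes, Fas was -0.01 and Bnip3l -0.09. Other sign changes were those of Bnip3l with median-of-ratios scaling (-0.25, passing as lower), Cdc37 with that scaling (-0.01), and Bak1 (-0.02), Bnip3 (0.05), Bnip3l (-0.16) and Ripk1 (-0.07) with quantile normalization. Leaving out 1 sample at a time gave -0.04 to 0.24 for Fas, 0.39 to 0.46 for Bid, -0.18 to 0.0 for Bcl2l1, -0.02 to 0.15 for Mlkl and -0.12 to -0.08 for Gsdmd. It gave 3537 to 4362 genes higher and 1000 to 1278 lower, 12 to 15 and 6 to 9 in the cell death lists, -0.09 to 0.03 for Bnip3, -0.0 to 0.08 for Bnip3l and -0.15 to 0.13 for Cflar.

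By exact permutation, with median-of-ratios scaling the ratios of means were 0.879 for Fas, 1.14 for Bid (p = 0.0857), 0.911 for Mlkl and 0.754 for Gsdmd (p = 0.0286), and on the TPM scale 1.01 for Bcl2l1, 1.09 for Ripk3 and 1.03 for Gsdmd. The cause of these shifts was not tested. Replicate numbers are shared by the groups, but same-numbered samples did not all deviate together (correlations of 0.349, 0.216, 0.071 and 0.28), so they were not taken as pairs. With a replicate block 4307 genes were higher and 1380 lower, the members called were the same number in each direction, Ripk1 passed (limma adjusted p = 0.0412), Cdc37 did not (0.0616), and the log2 change of Casp8 was -1.10 (limma adjusted p = 0.00011). Depth limits Ripk3, with 11 to 25 reads per library, and Mlkl, with 67 to 169.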
